A study of Mus musculus with 2 samples.

Results

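The genes of the signal transducer and activator of transcription (STAT) family were followed in nascent RNA of mouse bone marrow-derived macrophages (BMDMs) with and without interleukin-4 (IL-4). The members were taken by gene name: every called transcript that carried the name Stat2, Stat3, Stat4, Stat5a, Stat5b or Stat6. These were 38 of 43122 transcripts in the control library and 47 of 51365 in the IL-4 library. Of the 6 genes, 5 had a transcript in both libraries and 1, Stat4, had none in either.

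STAT proteins wait in the cytoplasm until Janus kinases bound to a cytokine receptor phosphorylate them, after which they pair, enter the nucleus and bind DNA. Each is tied to its own set of cytokines: STAT6 to IL-4 and IL-13, STAT2 to type I interferons, STAT3 to IL-6 and IL-10, STAT5A and STAT5B to growth factors such as GM-CSF, and STAT4 to IL-12. In macrophages STAT6 carries the IL-4 signal that drives alternative polarization, and SOCS proteins made in response shut the receptors down again.

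The cells were BMDMs of wild-type mice aged 8 to 12 weeks, grown for 6 days in supernatant of L929 fibroblasts, which supplies the growth factor M-CSF. The control cells received no IL-4 and the treated cells received 20 ng/ml IL-4 for 1 hr. Global run-on sequencing (GRO-seq) reads the RNA that engaged polymerases are extending in isolated nuclei. Run-on reactions were made in duplicate and pooled, so each condition was 1 library (n = 1), and no value below has a replicate error or a test. The cells were sequenced in bulk, so fewer cells of a type and less RNA per cell cannot be told apart.

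Each called transcript is a stretch of same-strand signal with a position and a score. The score was printed to 1 decimal and its scaling was not stated, and the depth of the libraries is unknown. Ratios of genes were therefore centred on the median gene, whose highest score was lower after IL-4 by a log2 ratio of -0.38 over the 8879 genes with a value in both libraries. A rounding range gives the ratios that printed scores allow, each being known to within 0.05. It is not an error between cultures. Scores of single segments are compared as printed, beside the same count over all gene bodies.

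The labelled cell type was checked on marker genes. All 9 macrophage markers, among them Csf1r, Adgre1 and Spi1, had same-strand transcripts within their gene bodies in both libraries, with a summed mean score of 2.65 in control and 3.95 after IL-4. None of the 5 T cell, 3 B cell or 4 fibroblast markers had one in either library. Of the 4 neutrophil markers S100a8 had transcripts in both libraries and Mpo in control, while Ly6g and Elane had none. The part of these neutrophil transcripts in the STAT values was not tested.

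The DNA in front of the genes is shown first, because several results turn on where transcription began. RefSeq start sites on GRCm38.p6 (mm10) gave 9 promoters for the 6 genes, each read from 250 bases before to 50 bases after the start. They were searched on both strands for TTCNNNGAA (the paired half-sites of most STAT proteins), TTCNNNNGAA (the wider spacing that STAT6 also binds) and GAAANNGAAA (the core of the interferon-stimulated response element bound by STAT2 with IRF9). Over all 32817 promoters of the same length, 8.29% held TTCNNNGAA, 6.95% held TTCNNNNGAA and 3.43% held GAAANNGAAA. Among the STAT promoters a match was found for Stat2 and for the inner start of Stat4. TTCNNNGAA had no match in any of the 9, and the promoters of Stat3, Stat5a, Stat5b and Stat6 held none of the motifs, which says only that these letters are not in these windows. A match is a description of the letters and not a bound site.

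The 250 bases before the Stat2 start, chr10:128270248-128270497 on the plus strand, are printed because they hold both kinds of match in capitals. GAAANNGAAA matched on the reverse strand from 222 bases upstream, and TTCNNNNGAA matched from 210 bases upstream without overlapping it.
Stat2: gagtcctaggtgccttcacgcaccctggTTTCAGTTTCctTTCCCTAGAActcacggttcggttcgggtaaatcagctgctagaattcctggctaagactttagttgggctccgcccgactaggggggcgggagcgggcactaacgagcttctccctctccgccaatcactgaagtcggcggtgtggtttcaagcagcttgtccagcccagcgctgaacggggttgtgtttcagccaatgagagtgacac

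The 30 bases around the Stat4 match, chr1:52008133-52008162 on the plus strand, are printed as the one other match. The capitals mark GAAANNGAAA, which begins 97 bases before the inner start.
Stat4: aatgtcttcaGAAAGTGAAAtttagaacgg

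The 250 bases before the Stat6 start, chr10:127642736-127642985 on the plus strand, are printed because a transcript read from the other strand covered all of them after IL-4. They hold no capitals since no motif matched.
Stat6: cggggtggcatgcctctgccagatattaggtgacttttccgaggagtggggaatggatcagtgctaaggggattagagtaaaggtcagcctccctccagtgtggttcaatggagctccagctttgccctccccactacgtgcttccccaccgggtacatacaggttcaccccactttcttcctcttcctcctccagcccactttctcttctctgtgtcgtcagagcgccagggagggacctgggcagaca

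Stat5b has a pair of start sites, and their promoters differ in composition. The 250 bases before the outer start, chr11:100850582-100850831 on the minus strand, are 82.0% G or C, and those before the inner start, chr11:100822571-100822820, are 46.4%, beside a median of 52.4% over all promoters.
Stat5b outer: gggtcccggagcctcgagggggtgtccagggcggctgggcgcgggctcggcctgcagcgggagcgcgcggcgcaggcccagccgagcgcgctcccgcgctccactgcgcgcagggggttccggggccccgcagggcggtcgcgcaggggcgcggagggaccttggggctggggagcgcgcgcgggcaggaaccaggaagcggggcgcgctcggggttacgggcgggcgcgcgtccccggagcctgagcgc
Stat5b inner: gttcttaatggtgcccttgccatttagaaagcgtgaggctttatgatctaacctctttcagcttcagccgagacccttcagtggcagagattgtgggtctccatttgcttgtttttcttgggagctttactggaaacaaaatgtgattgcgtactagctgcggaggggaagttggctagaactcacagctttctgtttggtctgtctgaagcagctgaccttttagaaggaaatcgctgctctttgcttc

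The stretch before the inner Stat5b start resembles the stretch before a Stat5a start. Whether this likeness bears on any value of these genes was not tested. In a local alignment 74 of 90 aligned bases were identical (82.2%). The Stat5a stretch lies within chr11:100860234-100860483 on the plus strand and begins 103 bases upstream, and the Stat5b stretch begins 94 bases upstream.
Stat5a: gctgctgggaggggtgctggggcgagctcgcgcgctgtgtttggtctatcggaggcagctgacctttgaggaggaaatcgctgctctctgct
Stat5b inner: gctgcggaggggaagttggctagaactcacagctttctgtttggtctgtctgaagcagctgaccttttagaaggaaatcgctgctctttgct

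The first comparison asked how much nascent transcript each STAT gene carried for its length. Same-strand transcripts were laid over the annotated gene (GENCODE M21), and their scores were summed over the bases they covered and divided by the gene length. In control the mean score per base was 0.0797 for Stat6, 0.0718 for Stat2, 0.0306 for Stat5b, 0.0114 for Stat3 and 0.0023 for Stat5a. Stat6 and Stat2 could not be ordered, as their rounding ranges (0.0704 to 0.0889 and 0.0644 to 0.0792) overlapped. After IL-4 the order was Stat2 at 0.173, Stat6 at 0.0661, Stat5b at 0.0171, Stat3 at 0.0153 and Stat5a at 0.0041. The ranges of Stat5b (0.0145 to 0.0198) and Stat3 (0.0130 to 0.0177) overlapped, and Stat2 stood above the other members. Among the genes with a transcript in control, 92.6% had a lower mean score than Stat2, and after IL-4 97.0% did. For Stat6 these shares were 93.4% and 90.3%, and for Stat5b 83.7% and 69.9%.

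**Figure D1:**
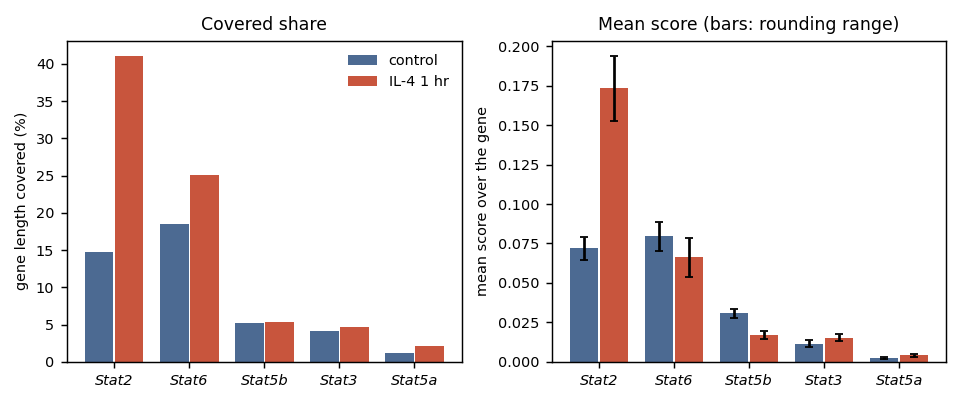
Share of each gene's length covered by same-strand transcripts in percent (left) and mean score per base of the gene (right) in the control and IL-4 libraries. Each bar is 1 library, and error bars, on the right alone, give the rounding range. Stat2 went from 14.8% to 41.1% covered and from 0.0718 to 0.173 in mean score, and Stat5b was covered over 5.27% and 5.33% with a lower mean score after IL-4.

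The mean score of Stat2 was 2.22-fold higher after IL-4 (centred log2 ratio 1.15, rounding range 0.83 to 1.47), and 1 of the 5 measured STAT genes was thus at least 2-fold higher by this measure, beside 16.6% of 7211 genes. Its range crossed the 2-fold limit. No STAT gene was at least 2-fold lower, beside 16.9% of genes. The other centred log2 ratios were 0.75 for Stat5a (0.01 to 1.49), 0.31 for Stat3 (-0.17 to 0.79), -0.39 for Stat6 (-0.85 to 0.04) and -0.96 for Stat5b (-1.32 to -0.62). The ranges of Stat3 and Stat6 included 0, and that of Stat5a took in the whole range of Stat2, so Stat5a and Stat2 could not be ordered. Over all genes 992 had a ratio at least as high as that of Stat2, which placed it at percentile 86.3.

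The second comparison used the highest score among the transcripts that carry a gene's name. Stat2 went from 0.8 in control to 1.1 after IL-4, which is 0.84 on the centred log2 scale (rounding range 0.68 to 1.00). Stat3 went from 1.8 to 1.1 (-0.33, range -0.44 to -0.23), Stat6 from 1.3 to 0.9 (-0.15, range -0.29 to -0.02) and Stat5b from 2.4 to 0.9 (-1.04, range -1.15 to -0.93). Stat5a went from 0.3 to 0.4 (0.79, range 0.38 to 1.23). By this measure no STAT gene was at least 2-fold higher, beside 8.06% of genes, and 1 was at least 2-fold lower, Stat5b, beside 8.62%. The range of Stat5b crossed the 2-fold limit. With 5 genes, a single one past 2-fold in a direction cannot be read against these shares.

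**Figure D2:**
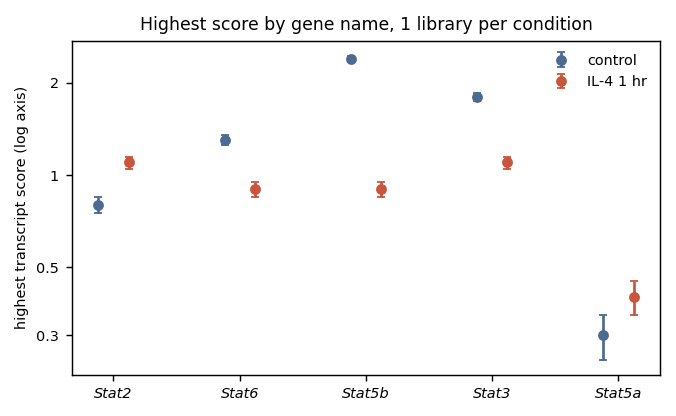
Highest score among the transcripts named for each STAT gene (log axis), 1 point per library, with bars for the 0.05 that rounding hides. Stat2 and Stat5a were higher after IL-4 and Stat6, Stat5b and Stat3 were lower, before centring.

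The names did not follow the genes along their whole length, because the annotation program names a transcript after the nearest promoter. Of the same-strand transcripts inside Stat3, 6 in control and 1 after IL-4 were named for Stat5a, its neighbour on the other strand, whose end overlaps that of Stat3 by 72 bp. The Stat5a value of 0.3 in control was read from such transcripts within Stat3, and the 0.4 after IL-4 from Stat5a itself, so this ratio compares different genes. With the sum of all scores under the name it was -0.39. In Stat2 2 control and 6 IL-4 transcripts were named for Il23a. In Stat6 6 and 4 were named for Nab2, and in Stat5b 5 and 1 for Ghdc. The positions below therefore use the gene body and not the name.

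**Figure D3:**
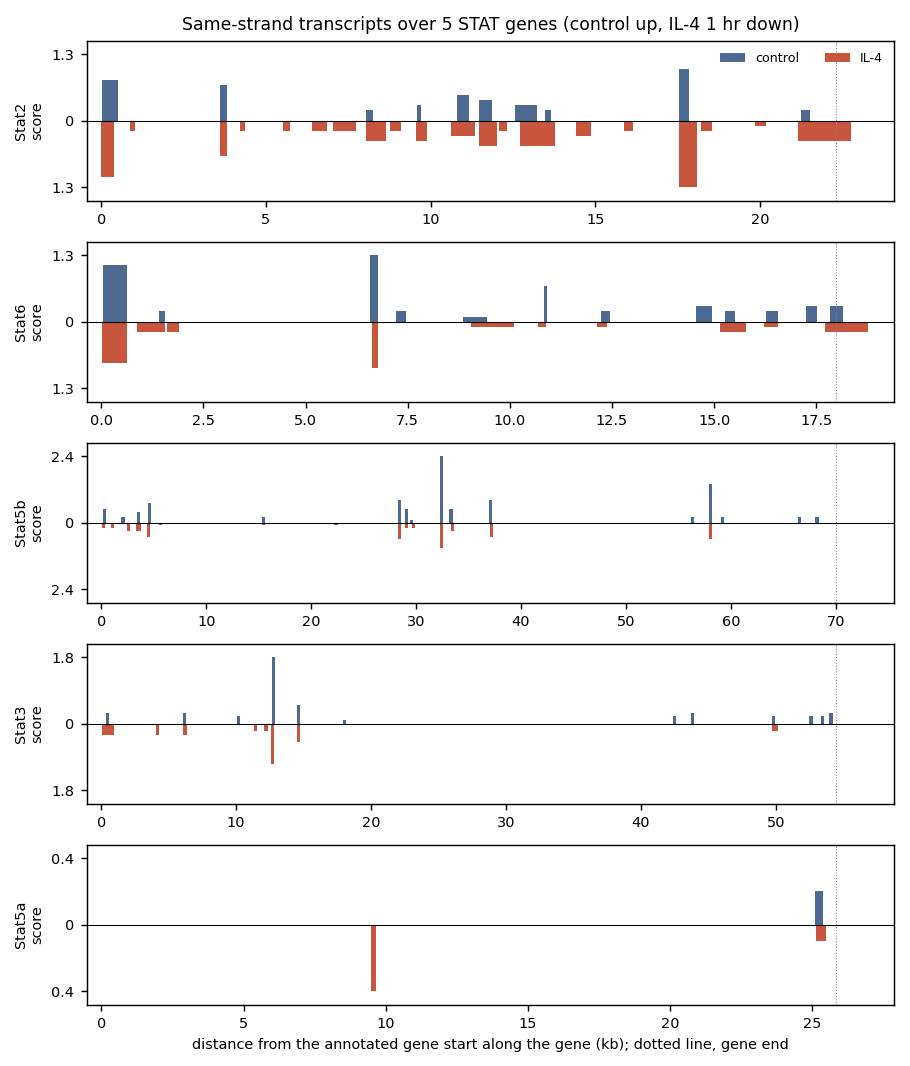
Same-strand transcripts along 5 STAT genes, drawn to scale by distance from the annotated start in kb, with control scores upward and IL-4 scores downward (score axes differ between genes). Stat2 filled with segments after IL-4, while the last of 4 equal parts of Stat5b was covered over 0.83% against 6.66% in control.

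Stat2 encodes the partner of IRF9 in interferon signalling and lies at chr10:128270559-128292849 on the plus strand (ENSMUSG00000040033.16). Its body held 10 transcripts in control and 20 after IL-4. Covered length went from 3292 to 9153 bp, from 14.8% to 41.1% of the gene, a ratio of 2.78 beside a median ratio of 1.41 over all genes. The ratio stood at percentile 83.3, and 1208 genes had one at least as high. Transcripts were longer throughout the IL-4 library, with a median of 312 bp against 227 bp in control, and the part of this in the Stat2 values was not tested.

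The added cover lay inside the gene and not at its start. In the first 1000 bp the control mean score was 0.411 and the IL-4 one 0.441, a log2 ratio of -0.05 after centring on the starts of 3058 genes. Over the rest of the gene it was 0.0558 and 0.161, a centred log2 ratio of 1.41. With the gene cut into 4 equal parts, the first was covered over 13.1% in control and 17.0% after IL-4. The second part went from 12.7% to 55.8%, the third from 22.5% to 49.4% and the last from 10.7% to 42.1%. So the parts past the first had the larger differences.

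Most matched Stat2 segments scored higher after IL-4. All 10 control segments overlapped an IL-4 segment, and of these 8 had the higher printed score after IL-4, 1 the same and 1 the lower. These 8 are not all separate gains. The control segments at chr10:128283108-128283774 and chr10:128284040-128284205 were both matched to the same IL-4 segment, which scored 0.5 over 1056 bp. Over all gene bodies 22.6% of 23423 matched segments were higher, 22.4% equal and 54.9% lower. Of the 20 IL-4 segments of Stat2, 11 had no control segment under them, beside 47.7% of IL-4 segments over all gene bodies, so this count does not set Stat2 apart. Those 11 scored 0.1 to 0.3, near the lowest printed scores of 0.1 in control and 0 after IL-4. The part of such low scores in the added cover was not tested. The start segment went from 0.8 over 514 bp to 1.1 over 377 bp. HOMER annotated it as the transcription end of NM_133997, the transcript of Apof, which ends 405 bp upstream on the same strand and had no transcript in its own body. The strongest segment, in intron 22, went from 1.0 over 312 bp to 1.3 over 540 bp. The segment in the 3' UTR of exon 24 went from 0.2 over 284 bp to 0.4 over 1604 bp. None of the Stat2 segments in either library was annotated as a simple repeat or low-complexity sequence. Other kinds of repeat did occur among them. The strongest segment was annotated as a B1_Mur3 element after IL-4, and a segment in intron 1 as an RMER17C element in both libraries.

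**Figure D4:**
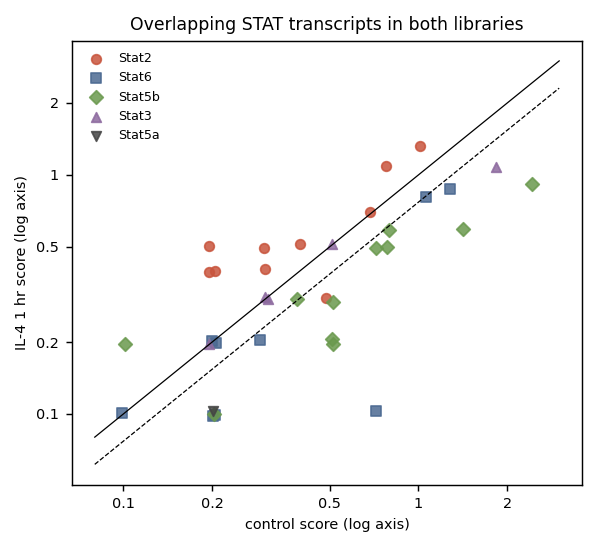
Scores of overlapping segments of 5 STAT genes in control and after IL-4 (both axes log), 1 point per control segment, shifted slightly so that equal points can be seen. The solid line marks equal scores and the dashed line the median gene (log2 ratio -0.38): 8 of 10 Stat2 segments lie above the solid line and 10 of 11 Stat5b segments below it.

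Stat6, the factor that IL-4 itself activates, lies at chr10:127642986-127660957 on the plus strand (ENSMUSG00000002147.18). Its body held 12 control and 10 IL-4 transcripts. The covered share went from 18.5% to 25.1%. The ratio of 1.35 was near the gene median of 1.41. The segments were longer. The median segment length was 253 bp in control against 479 bp after IL-4, beside 227 and 312 bp over all transcripts. Of 9 matched segments 6 had the lower printed score after IL-4, 3 were equal and none was higher, beside 54.9% lower, 22.4% equal and 22.6% higher over all gene bodies.

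At the Stat6 start the first segment, in intron 1, went from 1.1 over 576 bp to 0.8 over 604 bp. Its centred log2 ratio was -0.08, which was close to the median gene. The mean score of the first 1000 bp was 0.634 in control and 0.510 after IL-4 (centred log2 ratio -0.46), and that of the rest 0.0470 and 0.0399 (-0.35). The highest score of the gene, 1.3 in control and 0.9 after IL-4, came from a segment of 191 and 156 bp in intron 4 annotated as a simple repeat of TTTTC. With simple repeats and low complexity left out, the gene-body ratio was -0.31, near the -0.39 with them. Opposite to Stat6, a transcript of 608 bp with a score of 0.1 was called after IL-4 and not in control, at chr10:127642409-127643016 on the minus strand. It spans the printed Stat6 promoter, and its score is the lowest above 0 that the files print.

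Stat5b, which responds to growth hormone and GM-CSF, lies at chr11:100780731-100850724 on the minus strand (ENSMUSG00000020919.11). Its body held 16 transcripts in control and 15 after IL-4, and 5.27% and 5.33% of its length were covered. The scores of these segments differed. Of 11 matched segments 10 had the lower printed score after IL-4 and 1 the higher, beside 54.9% lower over all gene bodies. Of the 16 control segments 5 had no IL-4 counterpart, beside 36.8% over all gene bodies, and 4 of the 15 IL-4 segments had no control counterpart, beside 47.7%.

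Both Stat5b starts carried a segment in both libraries. The outer 5' UTR segment (NM_001113563) went from 0.5 over 131 bp to 0.2 over 235 bp, a centred log2 ratio of -0.94. The inner one (NM_011489) went from 0.8 over 243 bp to 0.6 over 235 bp, which is -0.04 and so near the median gene. The first 1000 bp from the outer start, which also take in part of a second IL-4 segment, had a mean score of 0.0655 in control against 0.0694 after IL-4 (centred log2 ratio -0.06). Towards the end of the gene, the last of 4 equal parts was covered over 6.66% in control and 0.83% after IL-4, with a mean score of 0.0228 and 0.0050. In the first part the direction was the other way, with 5.32% and 11.1% covered and a mean score of 0.0157 and 0.0263.

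The highest Stat5b score, 2.4 in control and 0.9 after IL-4, came from a CA simple repeat in intron 1, at chr11:100818161-100818483 in control. With simple repeats and low complexity left out, the highest score under the name Stat5b had a centred log2 ratio of -0.093 in place of -1.04. That value omits a segment inside Stat5b that was named for Ghdc, at chr11:100792638-100792775 in control. The segment, in intron 12 and not a simple repeat, scored 1.4 in control and 0.6 in the IL-4 library (-0.84 when centred). The centred gene-body mean was -0.79 in place of -0.96. The 2-fold call by highest score therefore rested on the CA repeat, but lower scores were not confined to it. Reads of Stat5b and of its near copy Stat5a can be shared where their sequences match, so how the aligner split them is uncertain.

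Stat5a lies 8626 bp from Stat5b at chr11:100859351-100885169 on the plus strand (ENSMUSG00000004043.14). Few transcripts were called there. Control held 1, in the 3' UTR of exon 18, with a score of 0.2 over 291 bp. After IL-4 the segment at that place scored 0.1 over 362 bp, and a second one, in an L1MEd element of intron 6, scored 0.4 over 176 bp. Transcripts covered 1.13% of the gene in control and 2.08% after IL-4. The first 1000 bp held no same-strand transcript in either library. The gene was among the lower ones, with 21.7% of genes below it in control and 35.2% after IL-4.

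Stat3, the factor of the IL-6 and IL-10 receptors, lies at chr11:100885098-100939540 on the minus strand (ENSMUSG00000004040.16) and ends against Stat5a. Its body held 12 transcripts in control and 8 after IL-4, with 4.06% and 4.73% covered. The difference lay in where they were. In the first of 4 equal parts the covered share went from 4.19% to 14.7%, and in the last part from 9.87% to 3.18%. The third part held none in either library.

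The sign of the Stat3 ratio depended on the measure, with -0.33 by highest score and 0.31 by gene-body mean. The Stat3 start segment scored 0.3 in both libraries but was longer after IL-4, at 892 bp against 206 bp. The first 1000 bp had a mean score of 0.0618 in control and of 0.268 after IL-4 (centred log2 ratio 1.97), while the rest of the gene was at 0.0105 and 0.0106 (-0.093). This start value rests on 1 segment. The highest score, 1.8 in control and 1.1 after IL-4, came from an ID_B1 repeat in intron 1, over 66 and 158 bp. Of 5 matched segments 4 had equal printed scores and 1 was lower, and 7 of the 12 control segments had no IL-4 counterpart, beside 36.8% over all gene bodies. Of those 7, 5 lay in the last part and were named for Stat5a.

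Stat4, which transmits IL-12 signals in T and natural killer cells, lies at chr1:51987148-52107189 on the plus strand (ENSMUSG00000062939.11). No transcript in the rows analysed here carried its name or overlapped its body on its strand, in control or after IL-4. Since transcripts below what the caller detects are not listed and the depth is unknown, this does not show that the gene was silent.

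The other genes of the pathway were taken from 4 lists with 49 different genes, of which 38 had a value in both libraries. By highest score 5 were at least 2-fold higher after IL-4, beside 8.06% of genes, and 2 were at least 2-fold lower, beside 8.62%. The median centred log2 ratio was 0.35, beside 0 for all genes by construction. Over the whole rounding range 4 remained higher and 1 lower. The values describe these libraries and set no list apart from others.

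Of 14 receptors and kinases 12 were measured in both libraries, with a median of 0.19. Il4ra, the chain that binds IL-4, scored 0.9 in control and 2.2 after IL-4 (centred log2 ratio 1.67, range 1.56 to 1.78). Jak1, a kinase that sits on that receptor, scored 7.5 and 2.8 (-1.04, range -1.08 to -1.01). Il2rg, another chain of the IL-4 receptor, scored 0.3 in control and had no transcript after IL-4, as for 9.65% of the genes named in control, and it was named after its values were seen. Il4ra and Jak1 thus stood on opposite sides of the median gene. By gene-body mean Il4ra was at 3.52 and Jak1 at -0.94, which is short of 2-fold. Jak2 was at 3.16 and Il10ra at -1.47 by that mean, while by highest score they were at 0.38 and -0.21. Jak2 and Il10ra were also named after their values were seen.

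Of 16 inhibitors 14 were measured in both libraries, with a median of 0.38. Socs1, which blocks Janus kinases, scored 0.3 in control and 2.5 after IL-4 (3.44, range 3.19 to 3.73). Socs3 and Socs7 also passed 2-fold, in opposite directions, but their ranges crossed the limit. Cish, with 0.6, and Socs2, with 0.3, had a transcript after IL-4 alone and so no ratio. These names were picked after their values were seen.

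Of 8 partners and cofactors 7 were measured in both libraries, with a median of 0.04, and none was 2-fold apart in either direction. Irf9, the DNA-binding partner of STAT2, scored 0.4 in control and 0.5 after IL-4 (0.70, range 0.38 to 1.03). It was named after its values were seen, for its link to Stat2.

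Of 13 STAT6 targets in macrophages 6 were measured in both libraries, with a median of 1.09. Mrc1, the mannose receptor of alternatively polarized macrophages, scored 2.7 in control and 13.1 after IL-4 (2.66, range 2.63 to 2.69). Mgl2, a lectin of the same cells, scored 0.8 and 1.6 (1.38, range 1.25 to 1.52), and Socs1, which is also an inhibitor, was the third higher gene. Another 4, Arg1, Egr2, Tgm2 and Cish, had a transcript after IL-4 alone, beside 12.1% of the genes named in the IL-4 library, and 3, Chil3, Retnla and Cdh1, had none in either library. No target was at least 2-fold lower. The list is made of genes known to respond to IL-4, so its direction is no independent evidence.

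**Figure D5:**
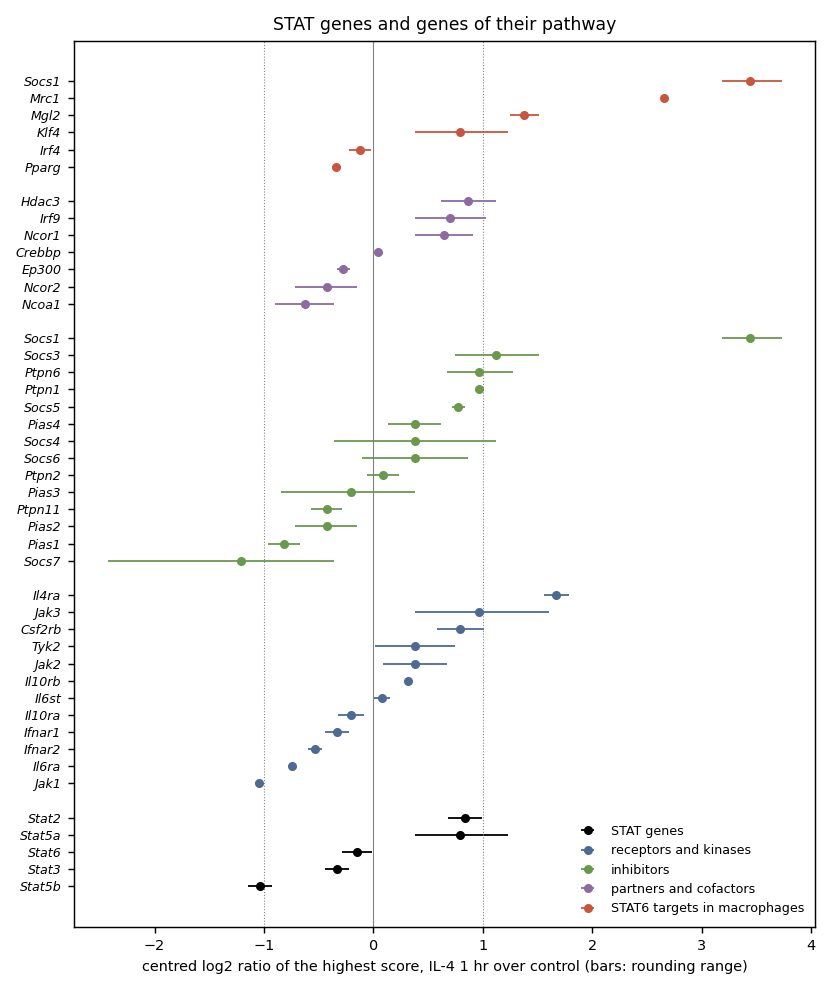
Centred log2 ratio of the highest score, IL-4 over control, for the STAT genes and the pathway genes measured in both libraries, with the rounding range as bars and dotted lines at 2-fold. Socs1 (3.44), Mrc1 (2.66), Il4ra (1.67) and Mgl2 (1.38) lie to the right of the 2-fold line over their whole range, Jak1 (-1.04) lies to the left of it, and the STAT genes lie between -1.04 and 0.84.

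The genes most like each STAT gene were those with the same printed pair of highest scores. The Stat2 pair of 0.8 and 1.1 was shared with 8 genes, among them Katnbl1 and Zbtb5. Stat3 shared its pair with 9 genes, among them B3gnt6, Stat5b with 2, Celf1 and Mdfic, and Stat6 with 20, among them Brox and Dcaf5. For Stat5a the number was 181. With 2 libraries and scores of 1 decimal, a shared pair says little beyond the level.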

How the data were processed

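The authors aligned GRO-seq reads to mm10 with BWA, discarded regions that ENCODE lists as artifacts, and used HOMER to call and annotate transcripts in each library. The submitters' processing notes name BWA 0.7.10, SAMtools 0.1.19 and HOMER 4.2. The deposited value is a score per transcript, printed to 1 decimal, whose scaling is not given in the sources used here. Both libraries were grouped by their treatment label, 1 per condition.

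Gene values, log2 ratios and rounding ranges were computed with Python 3.11.15, pandas 2.3.3 and numpy 2.4.6, from all transcripts. A gene was called at a 2-fold difference after centring. The gene-body mean of 7211 genes was centred on its own median log2 ratio of 0.12, and was added after the data were seen. Segments matched when they overlapped by at least 1 bp on one strand. A control segment that overlapped several IL-4 segments was compared with the highest of their scores. The scripts were checked on simulated scores. No test was possible with 1 library per condition.

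The STAT genes, pathway lists and markers were chosen with earlier results of these data known. By rule, all 6 STAT genes were named, and of a pathway list the genes 2-fold apart over their whole rounding range, at most 3 in a direction, as well as neighbours and the genes of most similar value. Promoter sequences were taken from RefSeq (GRCm38.p6), and names and coordinates of genes from GENCODE M21.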

Additional observations from a re-analysis of the deposited data

How the results depend on the processing

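Under all 13 alternatives the log2 ratio of Stat2 was positive (0.46 to 1.15) and those of Stat5b (-1.42 to -0.093) and Stat6 (-3.46 to -0.02) were negative. Stat3 (-0.71 to 1.13) and Stat5a (-0.48 to 1.42) changed sign. Unless said, the causes were not tested. The sum of scores gave Stat3 0.15, Stat5a -0.39, Stat5b -0.37 and Stat6 -0.30, with 1208 genes higher and 1219 lower and 8 and 1 in the pathway lists. Score times length gave Stat3 1.13, Stat5a -0.48 and Stat5b -0.80, 1529 and 1500 genes and 9 pathway genes higher. The transcript nearest the start gave Stat2 0.46, Stat3 0, Stat5a 0, Stat5b -1.32 and Stat6 -3.46, where the nearest one after IL-4 is the antisense transcript, with 2460 genes lower and 8 and 11 pathway genes. Same-strand overlap gave Stat5a 1.42. No centring gave Stat2 0.46, Stat3 -0.71, Stat5b -1.42 and Stat6 -0.53, 2161 genes lower and 5 pathway genes lower. Scores of at least 0.2 left 1 pathway gene lower, as did equal numbers of transcripts (43122). Scores of at least 0.3 left 336 and 386 genes, 1 pathway gene lower, and 23 STAT transcripts in control and 22 after IL-4. Without simple repeats and low complexity Stat5b, taken by name, was at -0.093 and 5 pathway genes were lower. The gene-body mean, added after the data were seen, gave Stat2 1.15, Stat3 0.31 and Stat6 -0.39, 1198 and 1218 genes and 9 and 4 pathway genes. Without repeats it gave Stat2 1.12, Stat3 0.35, Stat5b -0.79 and Stat6 -0.31, 1234 and 1220 genes and 10 and 5 pathway genes. The whole rounding range left 326 and 342 genes and 1 pathway gene lower. No paired analysis was possible because each condition is 1 library. The unknown depth and score scaling limit every ratio, and a gene with no transcript is not shown to be silent.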

Other observations

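Beside Stat6 lie Lrp1 and Nab2, both on the other strand. Lrp1, an endocytic receptor 21837 bp away, held 44 same-strand transcripts in its body in control and 3 after IL-4, covering 14.3% and 1.07% of the gene, and its highest score was 1.2 and 0.4 (centred log2 ratio -1.21). Nab2, a co-repressor of EGR proteins whose end overlaps that of Stat6 by 40 bp, held 4 and 5, covering 22.1% and 44.3%. The highest score of Nab2 was 0.8 in control and 0.4 after IL-4 (centred log2 ratio -0.62). Apof and Il23a, which flank Stat2, had no same-strand transcript in either body, nor had Ghdc beside Stat5b or Cavin1 beside Stat3. Lrp1 was therefore the neighbour with the largest difference in number, next to a Stat6 body with 12 and 10 transcripts.

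Opposite to Stat5a a pair of transcripts was called after IL-4 and none in control, with scores of 0.2 over 294 bp at the start region and 0.1 over 450 bp near the end.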
